A study of Homo sapiens with 16 samples.

Results

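A set of 250 genomic sites was labelled RAND_TSS, where TSS stands for transcription start site, and is called the random sites here. The same sites were carried in an episomal vector as short inserts of 200 bp and as long inserts of 350 bp. The long inserts add 75 bp to each side of the short sequence. All inserts with this label in the episomal tables were taken, 250 of the 499 inserts in the short library and all 250 inserts of the long library, and matched by name. The host was K562, an established human erythroleukaemia line labelled as wild type, and no treatment is given. The groups are EpiShort and EpiLong, each made up of 2 RNA samples from TSS-MPRA and 2 samples of sequenced DNA, which are 8 of the series' 16 samples, and the matching lentiviral samples LentiShort and LentiLong serve only to show whether a length difference recurs. Each site had 4 barcodes in the short and 2 in the long library. By GENCODE v44, 101 sites had a transcript start on their own strand no more than 500 bp from the middle of the site, 53 had one on the opposite strand only, and 96 had none on either.

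TSS-MPRA reads the 5 prime ends of capped RNA made from a pool of reporter inserts, and so records at once which insert was transcribed and the base at which its transcription began. RNA polymerase II is placed at a start by core promoter sequence close to that base, and how often it starts there depends on binding sites for transcription factors that may lie farther away. A longer insert can therefore bring in further binding sites, and also further places to start. GATA1, the master regulator of red cell development, is active in K562 cells and binds the sequence AGATAA.

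For the random sites RNA reads numbered 8614950 and 7531272 in EpiShort and 26720416 and 25766991 in EpiLong. DNA reads numbered 7863245 and 877702 in EpiShort and 8525746 and 8118349 in EpiLong, so EpiShort replicate 2 has the shallowest DNA measurement. Of the 250 sites, 245 had at least 20 DNA reads in each of the 4 DNA samples and a mean of at least 10 RNA reads and were tested. The 5 others had fewer than 20 DNA reads in at least 1 sample of 1 length and include the sites at SNRK and opposite C17orf58 and ADNP, so they give no length comparison.

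Positions are given relative to the middle of the site, base 0, which is insert position 128 in the short library and 203 in the long. With this offset of 75 bp the short and long start profiles overlapped by 46.1% and 48.5% in the 2 replicates, and by at most 17.8% and 18.5% at any of the other offsets tried. The tables hold no start in the last 36 bases of an insert: the last base with a start was +36 in the short and +111 in the long inserts. Starts in the long inserts from +37 to +111 thus have no counterpart that the short tables could show, although the short insert carries the bases up to +72. The reason is not given in the sources used here. The main counts of RNA per DNA, start usage and profile distance are therefore also given for the positions read in both lengths, -127 to +36. So are the differences of some of the named sites. Each fit of RNA per DNA over a window scales the counts of that window anew. Its differences are relative to the other sites within the window. They can therefore lie above or below those over all starts, even where few starts are left out. An RNA per DNA value given without a window is over all starts.

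The following 30-base stretches of hg38 show where transcription started at the 6 sites with the largest changes in output per DNA among those named by the rule on size, and at the chromosome 20 site and ENSG00000286835, to which the results return. They run 5 prime to 3 prime on the strand of the insert, with the base before the leading start and the leading start itself in capitals. The leading start is the base with the most starts, in replicate 1. In replicate 2 the short insert led at +35 at RNF32 and at 0 at PCGF5.
MIR223HG, short lead at 0 (chrX:66015336-66015365, plus): cagcattgttttgtCAttttgcatccagat
MIR223HG, long lead at +88 (chrX:66015424-66015453, plus): agggcccttcaaaaCAcagaagcttcttgc
RNF32, short lead at +22 (chr7:156640736-156640765, plus): cggtgggcggccagGGagttgcctgaggga
RNF32, long lead at +65 (chr7:156640779-156640808, plus): tccctgggttccggTGttcgcggaggagtc
Site on chromosome 20, short lead at +12 (chr20:62485520-62485549, plus): gacatcttgtaggcTGaagaacccgcccag
Site on chromosome 20, long lead at +102 (chr20:62485610-62485639, plus): ccctcttgttgttgCAgaaagaagccctca
Opposite ABT1, lead at 0 in both (chr6:26596771-26596800, minus): tcggaagcctgattCAgagcgtggaagcgg
ENSG00000286835, lead at 0 in both (chr9:96417287-96417316, minus): ggctgccgagtcctCAgttccgagaggaaa
HNRNPA3, lead at -34 in both (chr2:177212745-177212774, plus): cttcctctcggtccCAtattgaactcgagt
Site on chromosome 22, short lead at 0 (chr22:50170134-50170163, minus): tttgcagaaaatatTGaaatgaaatgaaag
Site on chromosome 22, long lead at +100 (chr22:50170034-50170063, minus): cgcgggagggtgggCAggggtgggggcggc
PCGF5, short lead at -10 (chr10:91220758-91220787, plus): tgctgtttctgtttCActttccttcactct
PCGF5, long lead at +56 (chr10:91220824-91220853, plus): tggcggccgctgggTAggtaccgggcgggc
Most human starts fall on a purine that follows a pyrimidine. Of the 12 sites named below for the size of their change, 7 had a short lead on this step in replicate 1, and all 12 had a long lead on it. RNF32 and RNFT2, where the short replicates led at different bases, are among the exceptions. Over all 245 tested sites the short lead was on the step at 85.3% and the long lead at 82.4%, in replicate 1. Some long inserts kept the leading base of the short insert, and others had their leading start in sequence that the short tables do not cover.

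Lengthening the insert changed the RNA output per DNA of most sites, in both directions. RNA per DNA differed between long and short inserts at 197 of 245 sites (80.4%), 102 higher (41.6%) and 95 lower (38.8%) in the long inserts, by the edgeR quasi-likelihood interaction of molecule and length at a Benjamini-Hochberg adjusted p under 0.05 (n = 2 RNA and 2 DNA samples per length). Which direction held more sites depended on the scaling and the filter: 91 were higher and 114 lower under relative log expression scaling, 91 and 117 in DESeq2, and 113 and 75 without a filter on reads. In the fit reported here the change exceeded 2-fold at 71 sites that were higher (29%) and 56 that were lower (22.9%). The median difference was 0.01 on the log2 scale, with quartiles of -0.90 and 1.26. Since the fit scales the libraries to each other, a difference is relative to the other sites, and a change shared by all sites would not be seen. The labels do not say that the replicates are separate cultures, so the p-values rest on a spread that may be purely technical, and insert length cannot be told apart from the separately made libraries.

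Replicates ranked the sites almost alike, and the lengths much less so. Log2 RNA per DNA ranged from -6.05 to 5.43 in EpiShort replicate 1 and from -5.54 to 5.08 in EpiLong replicate 1. Across the 245 sites, which are not independent replicates, Pearson's r was 0.997 between the short replicates, 0.978 between the long replicates and 0.595 between the means of the 2 lengths (Spearman 0.997, 0.982 and 0.600). The SD across sites was 2.16 and 2.17 in the short and 2.12 and 2.13 in the long samples. The libraries therefore spanned a similar range while individual sites exchanged places within it.

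**Figure D1:**
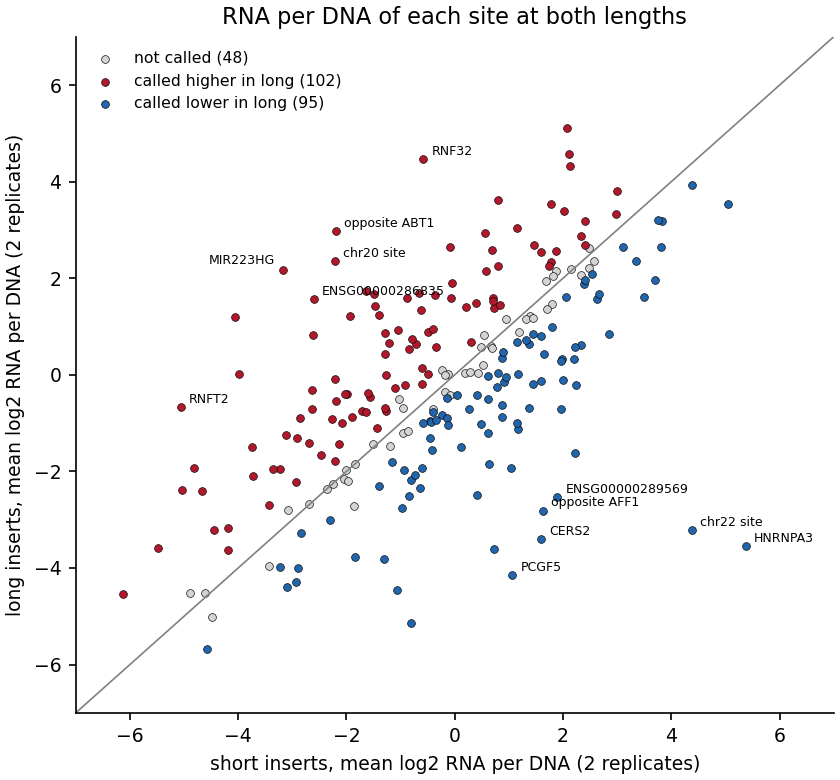
Mean log2 RNA per DNA of each of the 245 tested sites in long (y) against short (x) inserts, 2 replicates each, with the line of equal values. Points coloured by the edgeR call lie far from the line on both sides (102 higher and 95 lower in long), and HNRNPA3 and the chromosome 22 site lie farthest below it.

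The barcodes of a site show the spread between reporters that carry the same insert. They were measured together in the same 2 samples per length, so they are not replicates of a length and are described without a test. The median SD between barcodes of a site was 0.29 on the log2 scale in the short and 0.28 in the long inserts, against median absolute differences of 0.12 and 0.18 between replicates. All long barcodes lay on the same side of all short barcodes at 168 of 238 sites with enough barcodes (70.6%). Among the sites called with a change over 2-fold, 123 had barcode values, and at 122 of these the barcodes were apart in this way. Those calls were made on the sums of the same barcodes, so this is not a separate check of them.

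The sites that gained most were MIR223HG, the opposite strand at ABT1, RNF32, the site on chromosome 20, RNFT2 and ENSG00000286835. They were chosen by a rule on size that also required both long replicates to lie on one side of both short replicates. Their differences therefore describe the extremes, and the separation of their replicates is set by the rule. MIR223HG, the host gene of a myeloid microRNA (chromosome X, 66015149 to 66015498), gave log2 RNA per DNA of -3.15 and -3.19 in the short and 2.24 and 2.10 in the long replicates. The long replicates lay far above the short, a 40.7-fold difference (5.35 ± 0.16 SE, adjusted p = 1.3e-08, edgeR). RNFT2, a membrane protein with a RING finger (chromosome 12, 116759762 to 116760111, exon and UTR), was among the weakest short inserts at -5.06 in both replicates and gave -0.51 and -0.84 as a long insert (4.40 ± 0.18). RNF32, a RING finger protein (chromosome 7, 156640527 to 156640876, exon and UTR), went from -0.52 and -0.66 to 4.75 and 4.19 (5.07 ± 0.19), and by 4.34 with the first barcode alone. Over the positions read in both lengths its difference was 3.53 ± 0.22. Of its long starts 79.0% and 80.6% lay beyond +36. Bases that the short insert carries but its tables do not show held 66.5% and 68.1% of its long starts. The part of these bases in the difference over all starts was not tested.

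The gains differed in where the added RNA started. At MIR223HG 97.0% and 95.9% of the long-insert starts lay beyond +36, with 40.1% and 38.0% at the single base +88 shown above. Over the positions read in both lengths its difference was 1.27 ± 0.20 (adjusted p = 8.2e-05). The site on chromosome 20 (62485321 to 62485670, intergenic) gave -2.28 and -2.16 in the short and 2.61 and 2.11 in the long replicates (4.60 ± 0.23), with 98.0% and 97.6% of the long starts beyond +36. Its 2 long barcodes were far apart, at 0.61 and 2.71, and the difference was 2.84 with the first barcode alone. Over the positions read in both lengths it gave -0.13 ± 0.19 (adjusted p = 0.56), with values of -2.42 and -2.24 against -2.40 and -2.55 that overlap. An intronic site on chromosome 5 (95723657 to 95724006) was of the same kind: 4.02 ± 0.16 over all starts, 0.03 ± 0.21 over the positions read in both, and 96.5% and 96.1% of its starts beyond +36.

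At other sites the gain lay within the sequence that both inserts carry and that both tables read. The site opposite ABT1, a nucleolar activator of basal transcription (chromosome 6, 26596638 to 26596987), gave -2.22 and -2.18 in the short and 3.04 and 2.92 in the long replicates. Its long replicates lay far above its short replicates (5.17 ± 0.10, adjusted p = 6.7e-10, edgeR), and by 5.84 ± 0.13 over the positions read in both. The second value is larger only through the new scaling of the window, which leaves out long starts alone. The same holds for ENSG00000286835 below. Only 5.6% and 7.5% of its long starts lay beyond +36, and base 0 led in all 4 samples. The site at ENSG00000286835, a long noncoding RNA (chromosome 9, 96417154 to 96417503, exon), gave -2.71 and -2.50 against 1.56 and 1.56 (4.18 ± 0.14). The difference was 4.76 ± 0.19 over the positions read in both, and 3.53 over all starts with the first barcode alone. Base 0 held 64.3% and 61.8% of its short starts and 51.7% and 50.4% of its long starts over those positions.

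The sites that lost most were HNRNPA3, the site on chromosome 22, PCGF5, CERS2, the opposite strand at AFF1 and ENSG00000289569. HNRNPA3, a nuclear RNA-binding protein (chromosome 2, 177212592 to 177212941, exon and UTR), was the most active short insert in replicate 1, with 5.43 and 5.32 on the log2 scale. Its long insert gave -3.54 and -3.57, a 488-fold lower output (-8.93 ± 0.15, adjusted p = 5.3e-10, edgeR). The leading base stayed at -34 and held 62.7% and 61.1% of the short and 42.4% and 41.9% of the long starts over the positions read in both, where the difference was -8.75 ± 0.18. Its DNA reads were sufficient at each length, 18518 and 2025 in the short and 15415 and 14346 in the long samples.

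The site on chromosome 22 (50170001 to 50170350, intergenic) gave 4.18 and 4.57 in the short and -2.96 and -3.47 in the long replicates (-7.58 ± 0.21), and -7.57 ± 0.23 over the positions read in both. PCGF5, a Polycomb group RING finger protein (chromosome 10, 91220581 to 91220930, exon and UTR), gave 0.87 and 1.26 against -3.97 and -4.34 (-5.21 ± 0.19). The opposite strand at AFF1, a subunit of the super elongation complex (chromosome 4, 87006735 to 87007084), gave 1.72 and 1.54 against -2.61 and -3.01 (-4.43 ± 0.22). ENSG00000289569, a long noncoding RNA (chromosome 13, 28658915 to 28659264, exon), gave 1.80 and 1.99 against -2.36 and -2.71 (-4.43 ± 0.16), and 87.8% and 84.7% of its remaining long starts lay beyond +36. At these sites too the naming rule required the replicates of the 2 lengths not to overlap.

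CERS2, a ceramide synthase (chromosome 1, 150974697 to 150975046, exon and UTR), is the least certain of the losses. Its long insert had 136 and 275 DNA reads and 50 and 13 RNA reads, and none of those RNA reads started at the positions read in both lengths. The long replicates lay at -1.96 and -4.85 and the short at 1.51 and 1.67 (-4.83 ± 0.58, adjusted p = 5.3e-05, edgeR). Without EpiLong replicate 1 or 2 the fitted difference was -6.50 or -3.36.

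**Figure D2:**
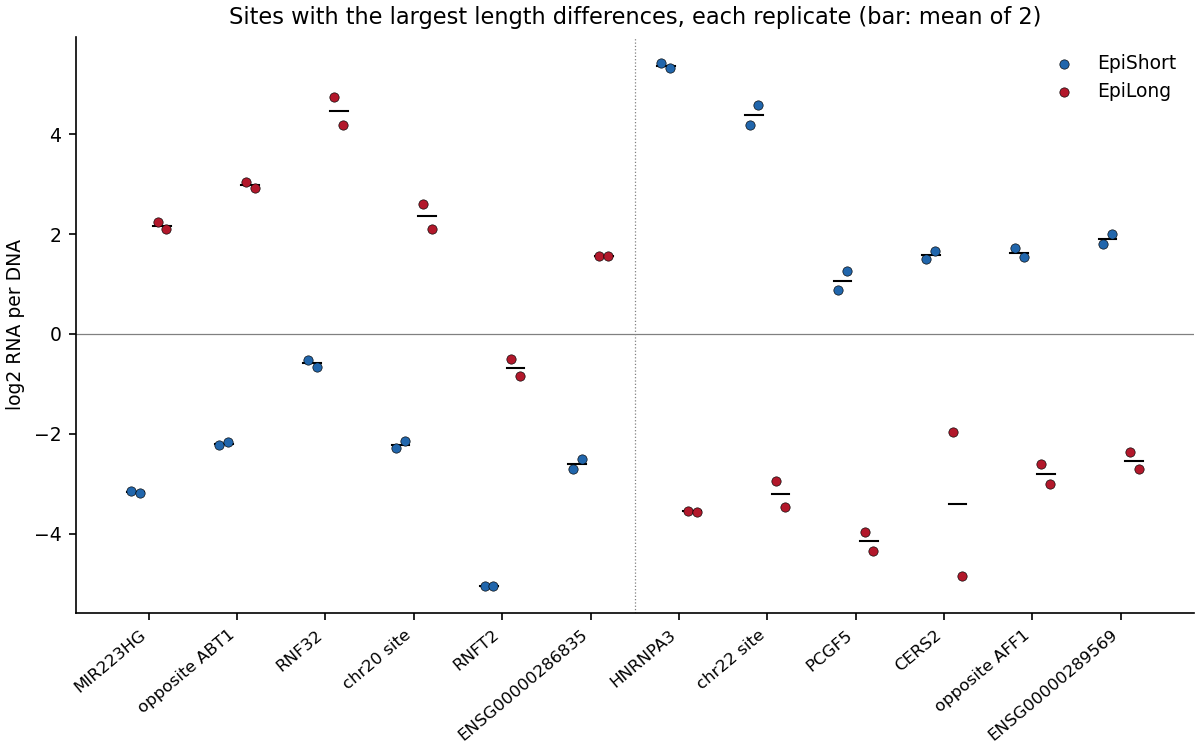
Log2 RNA per DNA in each replicate of the 6 sites with the largest gains (left) and the 6 with the largest losses (right), points for replicates and bars for the mean of 2. Short and long replicates do not overlap at any of the 12 sites, which the naming rule required. The long replicates of CERS2 are the widest pair.

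GC boxes, the binding sequence of SP and KLF factors (GGGCGG on either strand, in capitals), were looked for in the added upstream flanks, bases -202 to -128. Among the sites named for their size, 4 of the 6 that lost and 1 of the 6 that gained hold one there. The 2 sites that lost most, the site with a box that gained and 1 site without a box that gained are shown, chosen after their values were seen.
HNRNPA3 (chr2:177212592-177212666, plus): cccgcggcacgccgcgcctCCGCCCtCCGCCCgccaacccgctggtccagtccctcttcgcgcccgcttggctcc
Site on chromosome 22 (chr22:50170276-50170350, minus): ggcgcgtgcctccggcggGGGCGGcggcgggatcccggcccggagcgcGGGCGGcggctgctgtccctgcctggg
RNF32 (chr7:156640527-156640601, plus): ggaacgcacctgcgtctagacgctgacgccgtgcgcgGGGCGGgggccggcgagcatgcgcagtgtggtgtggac
ENSG00000286835 (chr9:96417429-96417503, minus): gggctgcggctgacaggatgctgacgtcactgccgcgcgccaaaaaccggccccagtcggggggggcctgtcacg
GC content was 80% in the flank of HNRNPA3, 86.7% in that of the chromosome 22 site and 72% in that of ENSG00000286835. Of all 250 upstream flanks 20.4% hold a GC box. Among the 50 tested sites with it, 19 were higher and 26 lower in the long inserts, with a median of -0.38 against 0.01 over all 245 sites. These are 38% higher and 52% lower, against 41.6% and 38.8% over all tested sites.

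A GATA element in the added upstream flank, AGATAA on either strand (TTATCT on the other), was present at 11 sites (4.4% of flanks), of which 9 were higher and 2 lower in the long inserts, with a median of 1.37. That is 81.8% higher, against 41.6% over all tested sites. Of 22 tested sites with the element in the shared 200 bp, 9 were higher and 9 lower. The 11 long inserts with it in the upstream flank had a median GC content of 49.7%, against 59.7% over all tested sites. The part of GC content was not tested. Over the positions read in both lengths 7 of the 11 were higher and 0 lower in edgeR, with 4 not called and a median of 1.15. Of all 245 sites 95 were higher and 88 lower there, with a median of 0.002. Without EpiShort replicate 2, which has the fewest DNA reads, the median of the 11 over all starts was 1.42, against 0.0005 over all 245 sites. The stretches below, with the element in capitals, are the 4 largest gains over the positions read in both and the 2 sites that were lower over all starts.
Site on chromosome 9 (chr9:129863222-129863251, minus): agggctggcttcTTATCTgtgcgcaccagg
Site on chromosome 10 (chr10:123135230-123135259, plus): agctgcgagcgcAGATAAccccgaggtgac
RN7SKP168 (chr2:17123112-17123141, minus): aggatgtgagggTTATCTggctgtgacatc
TUT1 (chr11:62591696-62591725, minus): cAGATAAgcatcgtaacgcgccgcttttcc
Site on chromosome 14 (chr14:36971528-36971557, minus): gtggtgtctggtTTATCTagggcccgcaga
ALDH1A2 (chr15:58332136-58332165, minus): tgaaggacagggTTATCTtcgcagggagcc
On chromosome 10 only the first base of the element lies in the flank, and the short insert carries the rest. The site on chromosome 9 and the intronic site on chromosome 5, also among the 11, hold the element in the added downstream flank as well. Only 3 of all sites do so, and the part of each copy was not tested. The site on chromosome 9 gave log2 RNA per DNA of -3.94 and -3.55 in the short and -1.95 and -1.05 in the long replicates (2.30 ± 0.34). The site on chromosome 10 gave -0.48 and -0.27 against 1.68 and 1.62 (2.03 ± 0.14). RN7SKP168, a pseudogene of the 7SK RNA, gave -0.46 and -0.35 against 0.72 and 1.16 (1.37 ± 0.19). The long replicates were above the short at each of these 3 sites. TUT1, a terminal uridylyltransferase, gave 2.43 and 2.38 against 3.23 and 3.14 (0.78 ± 0.11). The site on chromosome 14 was lower, at 1.56 and 1.61 against 0.65 and 0.96 (-0.77 ± 0.14), and ALDH1A2, a retinaldehyde dehydrogenase, gave -0.53 and -0.38 against -1.17 and -0.75 (-0.50 ± 0.18, adjusted p = 0.032, edgeR). Over the positions read in both lengths neither was called in edgeR. The differences there were -0.02 (adjusted p = 0.91) on chromosome 14 and 0.08 (adjusted p = 0.78) at ALDH1A2. In the lentiviral vector 8 of the 11 were higher in the long inserts and 1 lower in edgeR, against 41.8% of 244 sites in each direction. The length difference differed between the vectors at 6 of the 11, against 170 of all 244 sites (69.7%). The site on chromosome 10 had no such gain there (-0.02, adjusted p = 0.94, edgeR), nor did a site on chromosome 16, antisense to a gene (-0.10 against 1.61 in the episomal vector). ALDH1A2 was higher in the lentiviral long insert, by 1.24.

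A CRE (TGACGTCA, the same on both strands), bound by CREB and ATF factors, touched the upstream flank at 3 sites, and all 3 were higher in the long inserts, where 41.6% of all tested sites were.
ENSG00000286835 (chr9:96417464-96417493, minus): tgacaggatgcTGACGTCActgccgcgcgc
ENSG00000289173 (chr12:68610870-68610899, minus): cgcctTGACGTCAggcgttcagcctcgctc
FKBP15 (chr9:113221441-113221470, minus): ctggagaggccTGACGTCActcggcgctcg
Besides ENSG00000286835 these were ENSG00000289173, a long noncoding RNA (3.37 ± 0.25, adjusted p = 2.1e-06), and FKBP15, a member of the FK506-binding protein family (1.77 ± 0.14, adjusted p = 2.9e-06), both from edgeR. Of 5 tested sites with a CRE in the shared 200 bp, 2 were higher and 3 lower, with a median of -1.02. An ETS sequence (CCGGAA) in the upstream flank was present at 12 sites, 7 higher (58.3%) and 3 lower (25%) with a median of 0.49. A TATA box (TATAAA on the insert's strand) in the flank was present at 5 sites. Over all starts 3 were higher (60%) and 0 lower in edgeR, 2 not called, with a median of 0.57. The direction did not hold over the positions read in both lengths. There 1 of the 5 was higher and 2 were lower in edgeR, with a median of -0.44. A CCAAT box there was present at 20 tested sites, 8 higher and 8 lower (40% each), near the shares over all sites. The elements overlap in the sites that carry them, a match is only a run of letters, and the counts over each list are descriptions without a test.

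The direction of the change was also counted by the annotation around the site. Of the 94 tested sites with no annotated start near, 47 were higher (50%) and 28 lower (29.8%) in the long inserts, with a median of 0.38, against 41.6% and 38.8% over all tested sites. Sites with a start on the same strand had 39 higher (39%) and 42 lower (42%) of 100 (median -0.21), near the shares over all sites. Sites with a start on the opposite strand only had 16 higher (31.4%) and 25 lower (49%) of 51 (median -0.42). Under the relative log expression scaling the median of all sites moved to -0.22 and that of sites without a start to 0.15, 0.37 above all sites as in the fit reported here. GC content moves with these classes: its median over the long inserts was 50.4%, 64.1% and 62.9% for the 3 classes in the same order, and its part in the difference was not tested. Across the 245 sites Spearman's rho of the RNA per DNA difference with GC content of the long insert was -0.115, given as a description.

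DNA reads differed between the lengths at 229 of 245 sites (93.5%), so the libraries held the sites in different proportions. RNA reads alone differed at 226 (92.2%). Across the sites the DNA difference had a Spearman's rho of -0.485 with GC content, and the RNA per DNA difference a rho of -0.027 with the DNA difference. The latter share their DNA reads.

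The start profiles themselves also changed with length. Starts in the short inserts were centred on base 0, which held on average 19.1% and 18.6% of the starts of a site. In the long inserts it held 10.5% and 11.1% of all starts, which extended to the last base read. The 2 lengths are not counted over the same positions here. A mean of 59.1% and 62.2% of long starts lay at the positions read in both lengths, where all short starts lie. Over those positions the leading base of the short insert held a median of 22.9% and 23.6% of the short starts (234 sites). It held 19.7% and 20.1% of the long starts. Per site a median of 34.2% and 30.4% of long-insert starts lay beyond +36, and at 79 and 76 of 247 sites they were more than 50%. The part from +73 on, which only the long insert carries, held a median of 10.2% and 8.6%. The added upstream flank held almost none, a mean of 0.0502% and 0.0659%, and exceeded 1% at 2 sites in each replicate.

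**Figure D3:**
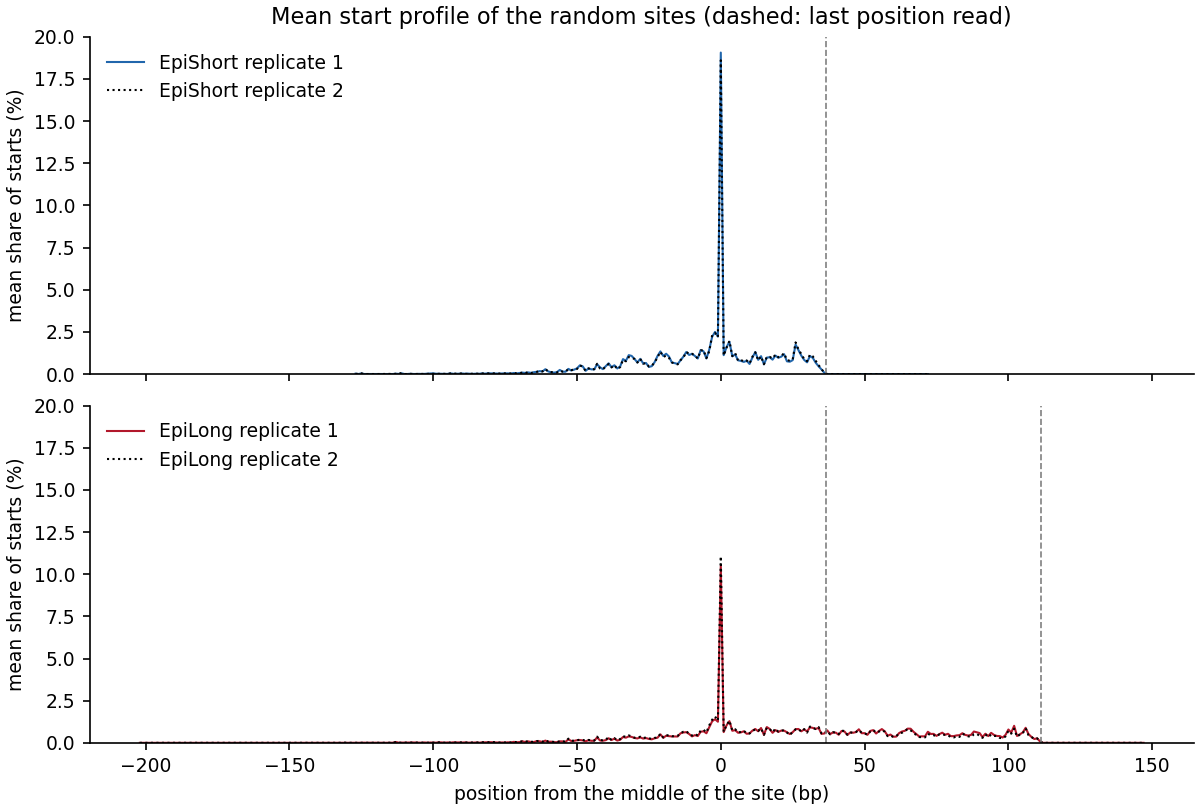
Mean share of starts (%) at each position from the middle of the site, over sites with at least 50 starts, in EpiShort (top) and EpiLong (bottom), replicates overlaid. The peak at base 0 is 19.1% and 18.6% in short and 10.5% and 11.1% in long inserts. Shares are of all starts read at that length, so they cover more positions in the long inserts. The dashed lines mark the last base read, +36 and +111.

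The share of starts on the initiator step was also measured along the insert. Starts on a purine after a pyrimidine made up a median of 62.6% and 60.1% per site in the short inserts and 61.2% and 60.9% over the same positions of the long inserts. From +37 to +72 of the long inserts the medians were 53.2% and 54.5%, and from +73 on 43.1% and 43.4%. The step itself makes up 21.5% of the steps in the median long-insert sequence.

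Among sites with at least 1000 long-insert starts in each replicate, the largest shares from +73 on were at the chromosome 20 site (97.0% and 96.4%), the intronic chromosome 5 site (94.6% and 94.8%), MIR223HG (87.5% and 85.2%) and SMYD5, a lysine methyltransferase (85.9% and 86.8%). SMYD5 (chromosome 2, 73214385 to 73214734, exon and UTR) gave -1.08 and -1.02 in the short and 0.98 and 0.87 in the long replicates over all starts (1.98 ± 0.12). Over the positions read in both lengths it was lower in the long insert, at -0.89 ± 0.18 (adjusted p = 7e-04, edgeR). The largest upstream shares among these sites were much smaller, 1.22% and 1.02% at ZBTB8OS, a cofactor of the tRNA ligase complex, and 1.10% and 0.44% at an intergenic site on chromosome 5 (40801905 to 40802254). The next were 0.90% and 0.63% opposite STK35, a kinase, and 0.69% and 0.74% at a UTR site on chromosome 1 (39205172 to 39205521).

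When only starts at the positions read in both lengths were counted, RNA per DNA differed at 183 of 245 sites (74.7%), 95 higher and 88 lower. The libraries were scaled anew for these counts. A site with few starts beyond +36 can thus have a higher value here than over all starts. In the 200-bp window that both inserts carry, with the 36 bases that the short tables do not show, it differed at 185 (75.5%), 106 higher and 79 lower. Under the relative log expression scaling these splits were 85 higher and 119 lower, and 86 higher and 113 lower. Of the 71 sites higher by over 2-fold over all starts, 59 were also higher over the positions read in both, 6 were not called and 6 were lower. Of the 56 sites lower by over 2-fold, 55 were also lower there and 1 was not called. The share of starts beyond +36 exceeded 50% at 26 of the 71 and 24 of the 56, and at 76 of all 245 sites.

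**Figure D4:**
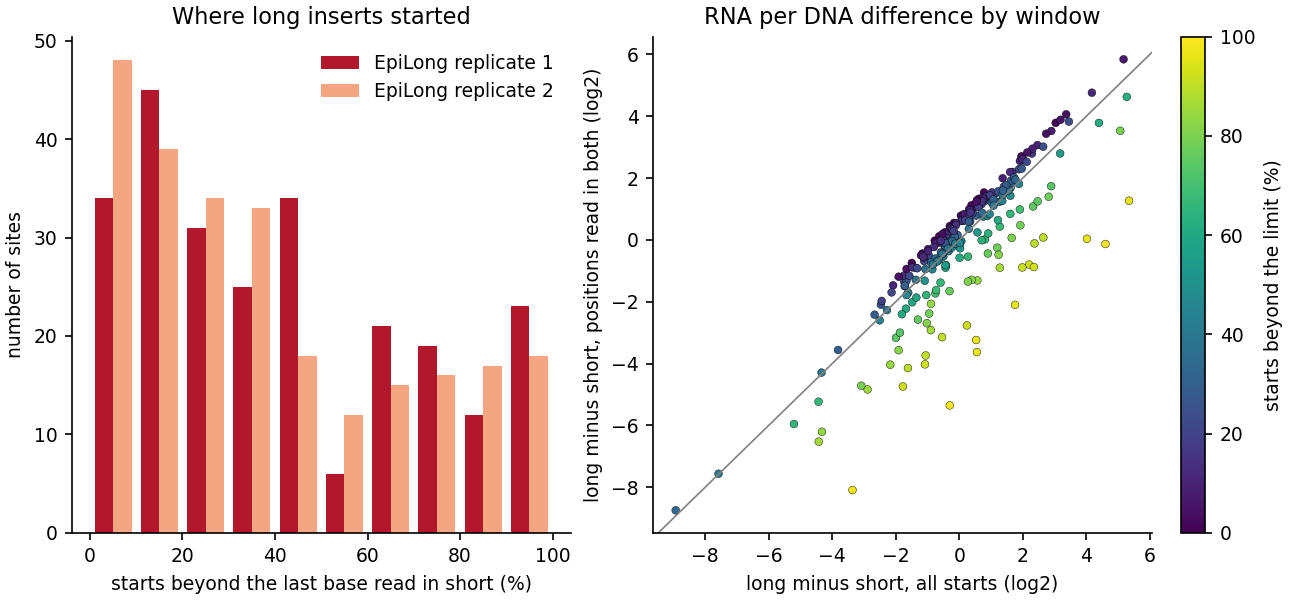
Left, number of sites by the share of long-insert starts beyond +36 in each EpiLong replicate. Right, the long minus short difference in log2 RNA per DNA over the positions read in both lengths (y) against that over all starts (x), coloured by that share, where sites with high shares fall below the line of equal values; CERS2, with 0 RNA reads in the long insert over those positions, is left out.

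Within the positions read in both lengths most sites kept their main start and shifted its surroundings. Of 234 sites with at least 50 starts there in each sample, 182 had a leading base on which the replicates of each length met, and at 133 of them it was the same base in all 4 samples. It lay downstream in the long insert at 39 and upstream at 10, and moved by more than 20 bp at 22 and 6 of these. Base 0 led in all 4 samples at 67 sites. The effective number of start positions had a median of 18.0 and 18.4 in the short and 17.4 and 18.1 in the long inserts. Profiles overlapped by a median of 71.2% between the lengths, against 93.1% between the short and 91.6% between the long replicates.

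Start usage over the positions read in both lengths differed between the lengths at 234 of 247 sites (94.7%, edgeR's test of differential usage with the Simes method, adjusted p under 0.05), and over the shared 200 bp at 238 (96.4%). The distance between profiles, the mean number of bp that starts must be moved to turn one into the other, had a median of 6.74 bp over the positions read in both, against 0.776 bp between the short and 1.42 bp between the long replicates. It exceeded both replicate distances at 211 of 234 sites (90.2%). Over the shared 200 bp the median was 16.5 bp and 236 of 241 sites were apart (97.9%), a window in which the short tables show no start in the last 36 bases. The mean start position lay downstream in both long replicates of both short replicates at 176 of the 234 sites, and upstream at 40, with a median shift of 4.31 bp.

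The sites whose profiles changed most over the shared 200 bp were SCRN3, a secernin (70.0 bp), and sites on chromosomes 19, 15 and 17 (54.8, 53.2 and 52.1 bp). Their long starts lay mostly beyond +36: 91.3% and 87.3% at SCRN3, and 95.9% and 95.5% at the chromosome 17 site (1487974 to 1488323). Over the positions read in both, SCRN3 (chromosome 2, 174395593 to 174395942, exon and coding sequence) was 3.21 bp apart, and base 0 led there in all 4 samples. The chromosome 19 site (51785011 to 51785360) was 22.3 bp apart there, with its leading start at -28 in the short and +14 in the long inserts.

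Some profiles were nearly the same at both lengths, with or without a called change in output over all starts. ELF1, an ETS family transcription factor (chromosome 13, 41061237 to 41061586, exon and UTR), had profiles 1.23 bp apart and log2 RNA per DNA of 2.20 and 2.10 in the short and 2.17 and 2.23 in the long replicates (0.05 ± 0.12, adjusted p = 0.72, edgeR), values that overlap. Over the positions read in both, scaled anew, ELF1 was called higher (0.78 ± 0.15, adjusted p = 5.1e-04, edgeR). In the lentiviral vector it was lower over all starts (-0.85 ± 0.13, adjusted p = 5.3e-05, edgeR). The site opposite MRFAP1L1 was 1.69 bp apart. A site on chromosome 7 (131072099 to 131072448) was 2.09 bp apart and gave 2.06 and 2.08 against 5.08 and 5.13 (3.04 ± 0.12), the highest values of both long samples. A second site on chromosome 20 (2525631 to 2525980) was 2.49 bp apart and gave 2.09 and 2.13 against 4.41 and 4.72 (2.46 ± 0.15). At these last 2 sites the long replicates lay well above the short ones.

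In the lentiviral vector, a separate set of libraries, most length differences had the same sign. Of the 127 sites that changed over 2-fold in the episomal vector, 111 had the same sign (87.4%), and 105 of these also passed the test. HNRNPA3 gave 3.99 and 3.99 in the short and -6.71 and -5.86 in the long lentiviral replicates. The opposite strand at ABT1 gave -0.57 and -0.81 against 2.32 and 2.05. Across 244 sites Pearson's r between the 2 length differences was 0.785 and Spearman's rho 0.717, given as a description. The size of the length difference nevertheless differed between the vectors at 170 of 244 sites (69.7%, edgeR, interaction of molecule, length and vector), 80 with a higher and 90 with a lower value in the lentiviral vector. Scaled by library totals alone the split was 49 and 125.

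**Figure D5:**
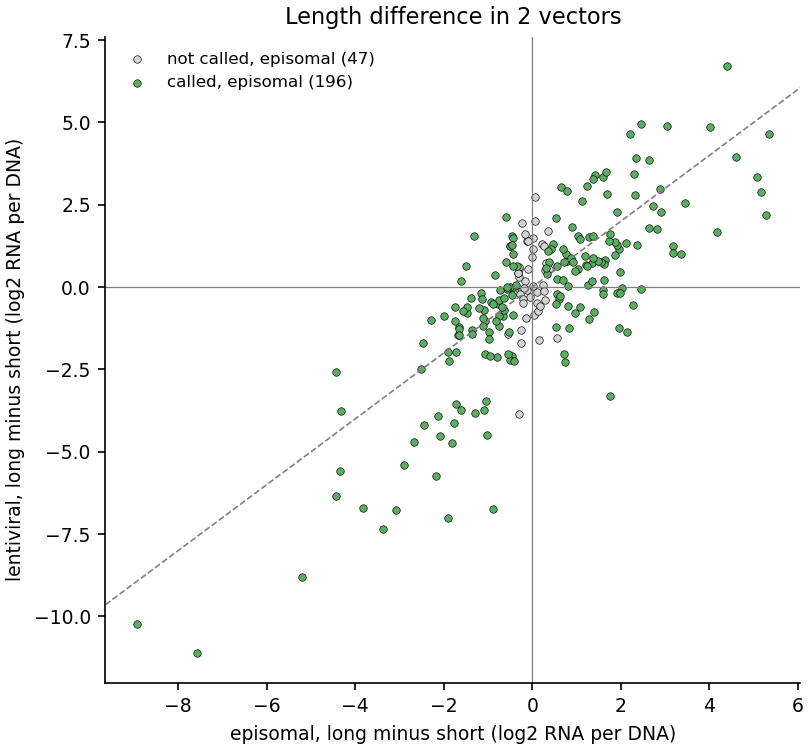
Long minus short difference in log2 RNA per DNA in the lentiviral (y) against the episomal vector (x) for 243 sites, coloured by the episomal call, with the dashed line of equal values. Most called sites lie in the lower left and upper right quadrants; CERS2, with 0 RNA reads in the lentiviral long insert, is left out.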

How the data were processed

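Per the labels' protocols, capped RNA of K562 cells was enriched, decapped, ligated to 5 prime adapters and sequenced from both ends. STAR 2.7.9a and hg38 are named in the submitters' processing notes, and the steps from reads to tables are not given in the sources used here. The deposited tables give RNA and DNA counts per barcoded insert, as whole read counts without normalization, and the fraction of RNA reads starting at each position. Products of fraction and count were within 0.05 of a whole number for 99.87% to 99.97% of nonzero values and were rounded. Replicate numbers rest on the order of sample names that a table carries. In all, 12 blocks of rows named for csRNA and 2 tables of a middle window were not used.

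Barcodes were summed per site. RNA per DNA was tested with edgeR 4.0.16 (quasi-likelihood, TMM, at least 20 DNA reads per sample and a mean of at least 10 RNA reads), with limma 3.58.1 and DESeq2 1.42.0 as alternatives, in R 4.3.3. Displayed log2 RNA per DNA values are scaled to these libraries, with a pseudocount of 1. The scripts were tested on simulated data. Reads carry no molecular identifiers, so counting error understates the error. Replicates differed beyond counting error, with a chi-square per degree of freedom of 14.4 to 1649.

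Sites were named by rule: the 6 largest differences each way among called sites with non-overlapping replicates, at least 100 DNA reads and a mean of 50 RNA reads; the 4 largest and 4 smallest profile distances, with at least 1000 starts and replicate distances under 5 bp; and the 4 largest flank shares. The sites with GATA or CRE elements, ENSG00000289173, FKBP15 and the chromosome 5 site were named beside their lists. The sites, lists and rules were chosen with earlier results of these data known. Sequences and coordinates are from hg38 and genes from GENCODE v44. The restriction to positions read in both lengths was added after seeing the data.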

Additional observations from a re-analysis of the deposited data

Results flagged for a closer look

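The length difference in RNA per DNA differed between the vectors, by the edgeR interaction of molecule, length and vector, at 9 of the 12 sites with the largest episomal differences, CERS2 not counted. This share is near that over all sites, 170 of 244 (69.7%). The lentiviral minus episomal value was -2.18 ± 0.16 for the site opposite ABT1, -1.59 ± 0.26 for RNF32 and -2.39 ± 0.18 for ENSG00000286835, whose gains were smaller in the lentiviral vector. It was 2.43 ± 0.19 for RNFT2, whose gain was larger there. Among the losses it was -1.19 ± 0.28 for HNRNPA3, -3.43 ± 0.43 for the chromosome 22 site, -3.49 ± 0.35 for PCGF5 and -1.79 ± 0.33 for the site opposite AFF1, all deeper in the lentiviral vector. ENSG00000289569 went the other way at 1.95 ± 0.29. CERS2 also passed the edgeR test (adjusted p = 6.7e-04) and is among the 170. It had 0 RNA reads in both lentiviral long samples, so it is left out of the 9 and no fitted value is given. The sites were picked for large episomal differences, and the part of that choice in these values was not tested.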

How the results depend on the processing

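The counts of called sites stayed within 1.5 times those reported under every alternative run. RNA per DNA ran from 187 sites (first barcode alone) to 208 (DESeq2) with all replicates, against 197, and was 197 with a replicate block, which pairs samples by number only: deviations of same-numbered samples correlated by 0.15 in RNA and -0.10 in DNA. Leaving out each replicate gave 172 to 208 for RNA per DNA, 158 to 190 in the shared window, 163 to 190 over the positions read in both, 211 to 234 for RNA, 222 to 230 for DNA, 154 to 177 for the vector interaction, 220 to 239 for start usage and 218 to 241 sites with distant profiles. Each of the 12 sites named for RNA per DNA kept its direction and its call under every alternative that gave a value.

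The median profile distance of 16.5 bp became 6.74 bp over the positions read in both lengths and 6.43 bp there with at least 500 starts; without each replicate it ran from 15.6 to 16.8 bp over the shared window. Over the positions read in both lengths it was 6.83 and 6.86 bp without EpiShort replicate 1 and 2, and 6.65 and 7.08 bp without EpiLong replicate 1 and 2. The median upstream flank share was 0.00818% with at least 500 starts, 0.0339% with all reads pooled, and 0.0051% to 0.00582% without each long replicate. The share beyond +36 was 29.8% with all reads pooled. EpiShort replicate 2 limits the DNA side, with a median of 2878.5 DNA reads per site.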
